A study of Mus musculus with 9 samples.

Results

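The genes described here are 5 ligands of the TNF superfamily and 2 genes of the machinery that sheds TNF from the cell surface. They are the rows of the deposited RiboSeq table that carry the symbols Tnf, Ltb, Tnfsf9, Tnfsf12, Tnfsf14, Adam17 and Rhbdf2, 7 of 16921 gene identifiers. RiboSeq sequences the mRNA fragments that ribosomes protect from nuclease, so that the number of footprints on a gene reflects both its mRNA level and how densely the mRNA is translated. These contributions cannot be told apart in footprints alone, and neither can fewer cells and less RNA per cell.

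Primary TTP-deficient bone marrow-derived macrophages (BMDMs), homozygous for the Zfp36tm1Pjb allele, had been grown for 10 days in 10 ng/ml M-CSF, immortalized with the oncogenes hcmyc and hRasG12V, and selected for the macrophage surface proteins CD11b and F4/80. Cells were then transduced with a doxycycline-inducible retroviral vector for GFP alone, for GFP–TTP or for GFP–TTP-AA, in which S52A and S178A replace serines that the kinase MK2 phosphorylates. All cells, the GFP controls included, lacked endogenous TTP and received doxycycline (1 μg/ml) for 6 h and LPS (1 μg/ml) for the last 1 h. There were 3 libraries per condition, with replicate numbers 1 to 3, and since a different transduced line stands for every condition, construct and line cannot be told apart. The labels number the libraries as replicates without giving what separates them. The deposited values summed to between 2570290 and 12804489 footprints per library.

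TNF is made as a membrane protein that faces outwards and is released when the metalloprotease ADAM17 cuts its stalk. ADAM17 reaches the surface only with the help of an iRhom, an inactive rhomboid protein, and iRhom2, encoded by Rhbdf2, serves this role in macrophages. TTP, the product of Zfp36, is known to bind UAUUUAU elements in the Tnf 3′UTR and to recruit the enzymes that shorten the poly(A) tail. Phosphorylation by MK2 is known to weaken this recruitment.

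The 3′UTR of Tnf (chr17:35199381-35202007 on GRCm38, minus strand) is 764 bases long in the transcript with the longest coding sequence in GENCODE vM21. It holds the motif TATTTAT 8 times when overlapping matches on the sense strand are counted, and 9 of the 9967 genes that pass the level filter and have an annotated 3′UTR hold at least as many, Tnf included. A single copy or more was present in 27.5% of these 9967 genes, and in 20.2% of the 1166 of them whose 3′UTR length is within 20% of that of Tnf. The windows of 30 bases below are shown because they hold the binding motif of the expressed protein. They are read 5′ to 3′ on the strand of the mRNA, with T for U and the motif in capitals, and the first of them holds 5 of the 8 copies in Tnf.
Tnf, chr17:35199677-35199706, minus strand: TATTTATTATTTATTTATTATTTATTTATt
Tnf, chr17:35199707-35199736, minus strand: cagcccccctcTATTTATatttgcacttat
Tnf, chr17:35199646-35199675, minus strand: gcttatgaatgTATTTATttggaaggccgg
Tnf, chr17:35199497-35199526, minus strand: ttaaaacaaaaTATTTATctaacccaattg

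Among the other ligands, TATTTAT was present 2 times in Tnfsf9 (chr17:57105325-57107757, plus strand; 3′UTR of 253 bases) and 1 time in Tnfsf14 (chr17:57189492-57194177, minus strand; 3′UTR of 1019 bases). At least 2 copies were present in 0.695% of the 719 genes with a 3′UTR length like that of Tnfsf9, and at least 1 copy in 24.8% of the 1298 genes with a length like that of Tnfsf14.
Tnfsf9, chr17:57107604-57107633, plus strand: actggacttggTATTTATtctgagcatagc
Tnfsf9, chr17:57107712-57107741, plus strand: atcaaagtttaTATTTATattaatatataa
Tnfsf14, chr17:57190251-57190280, minus strand: tcaagctggggTATTTATgcttctgatgca

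The remaining 4 genes hold no TATTTAT in the 3′UTR. Adam17 (chr12:21323509-21373632, minus strand; 3′UTR of 1767 bases), Rhbdf2 (chr11:116598165-116627019, minus strand; 850 bases) and Tnfsf12 (chr11:69686250-69695849, minus strand; 590 bases) each hold the shorter core ATTTA 1 time, and Ltb (chr17:35194439-35196320, plus strand; 156 bases) does not hold it. ATTTA was present in 88.0% of the 1348 genes with a 3′UTR length like that of Adam17. The core of Adam17 is shown because Adam17 differed most between the conditions after Tnf.
Adam17, chr12:21323573-21323602, minus strand: cttggaaaagacATTTAatcaatctcttga
The expressed GFP–TTP and GFP–TTP-AA act in trans, and motif matches describe these sequences without showing that a site was bound.

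The deposited values are not observed counts. They are numbers of footprints as fitted by the authors with DESeq2, with a term for the condition and a term for the library date, for which the replicate number stands here. Within a gene, every condition therefore carries the same replicate pattern, no residual spread is left, and no test or p-value can be given. Libraries of different conditions that do not overlap then show only that the fitted condition difference is larger than the shared replicate pattern. The model also moved differences towards 0, most for genes with few footprints. A level below is a fitted value over its library's size factor, a condition's level is the geometric mean of its 3 libraries, and a difference is given on the log2 scale. A gene passed the level filter with a mean level of at least 10, which held for 10102 genes. A difference of at least 0.5 stands in place of a call, and the share of those 10102 genes past it is given as the background.

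Before the members were compared, Zfp36 was examined, since the expressed constructs carry its coding sequence. Its level was 442, 440 and 501 in the GFP libraries, 891, 887 and 1013 in the GFP–TTP libraries and 1475, 1459 and 1661 in the GFP–TTP-AA libraries. The conditions did not overlap, and GFP–TTP-AA was 1.65-fold higher than GFP–TTP. The mean level of Zfp36 was 0.808 of the authors' mean over libraries, outside the range of 0.931 to 1.01 that holds the middle 95% of the genes past the filter, so that its fitted levels follow the counts less closely than those of most genes. Zfp36 was not at 0 in the GFP cells, whose locus is disrupted, and the values per gene do not show on which part of the gene these footprints lie. Differences between GFP–TTP and GFP–TTP-AA thus go together with unequal fitted levels of Zfp36, in which construct and disrupted locus cannot be told apart. The part of this in the results below was not tested.

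Of the macrophage markers, 7 of 8 passed the filter, among them Cd14 with a mean level of 10610, Csf1r with 6940, Adgre1, which encodes F4/80 and is listed under its older symbol Emr1, with 3856, and Itgam, which encodes CD11b, with 3193. Mertk was at 4.94. No marker of T cells, B cells, dendritic cells or fibroblasts that was listed passed the filter, and the highest of them was Zbtb46 at 3.31. The neutrophil marker S100a8 had a mean level of 37.6. The summed level of the macrophage markers was 85790 to 104174 in GFP, 68093 to 81401 in GFP–TTP and 96475 to 118344 in GFP–TTP-AA libraries.

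Per kilobase of coding sequence, the levels of the members spanned 4 orders of magnitude. In GFP cells Tnf had 16983 footprints per kb, Tnfsf9 2688, Adam17 436, Rhbdf2 194, Tnfsf14 36.8, Tnfsf12 6.93 and Ltb 1.35. The order was the same in GFP–TTP and GFP–TTP-AA cells, and no neighbours in it overlapped in their ranges over libraries. By total level Tnf ranked 54 and Tnfsf9 450 among all genes, Adam17 936, Rhbdf2 2597 and Tnfsf14 9271. Tnfsf12 (mean level 5.40) and Ltb (mean level 1.16) did not pass the filter, so that 5 of 7 members did.

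**Figure D1:**
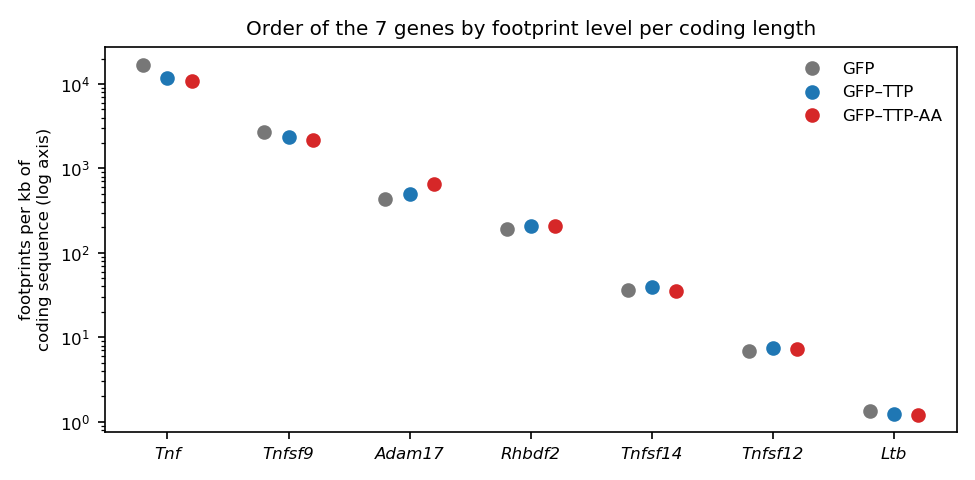
Footprints per kb of the longest coding sequence (log axis) for the 7 genes in GFP, GFP–TTP and GFP–TTP-AA macrophages. Each point is the geometric mean of 3 libraries. In GFP cells the values run from 16983 for Tnf to 1.35 for Ltb, and the order is the same in every condition.

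Tnf, which encodes the inflammatory cytokine that gives the family its name, was lower in both lines that expressed TTP. Its level was 11816, 11646 and 12472 in the GFP libraries, 8247, 8128 and 8709 in the GFP–TTP libraries and 7645, 7485 and 7999 in the GFP–TTP-AA libraries. Every GFP library was above every other library, and the lowest GFP–TTP library was above the highest GFP–TTP-AA library. The difference was -0.52 for GFP–TTP minus GFP, a level 0.698 times that of GFP, and -0.64 for GFP–TTP-AA minus GFP, a level 0.644 times that of GFP. Both comparisons share the GFP libraries. GFP–TTP-AA minus GFP–TTP was -0.12, which ranked 3508 from the lowest among the 10102 genes, whose SD in this comparison was 0.35. These libraries separate only because -0.12 exceeds the range of Tnf over replicate numbers, 0.098.

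Among the 10102 genes, 247 had a lower difference than Tnf in GFP–TTP minus GFP and 103 in GFP–TTP-AA minus GFP. Tnf footprints made up 0.188% to 0.208% of all fitted footprints in GFP libraries, 0.130% to 0.144% in GFP–TTP libraries and 0.121% to 0.133% in GFP–TTP-AA libraries. The counting error of the Tnf differences, from the summed fitted footprints, was 0.011 to 0.012. It covers counting only and leaves out the spread between cultures. The difference of -0.52 lies close to the size of 0.5, and the size factors themselves varied by up to 0.034 on the log2 scale with the genes they were taken from.

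**Figure D2:**
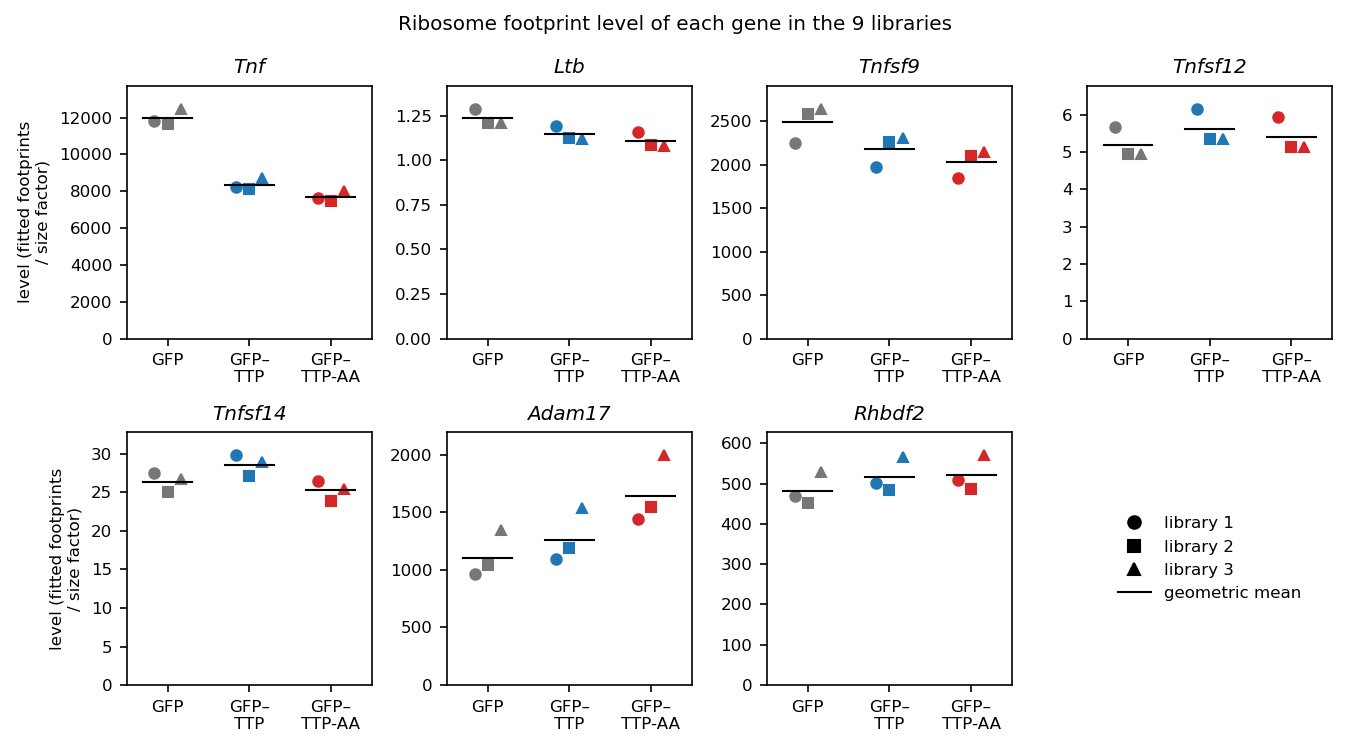
Level (fitted footprints divided by the size factor, linear axes from 0) of each gene in the 9 libraries. Symbols give the replicate number and black lines the geometric mean. Tnf lies between 11646 and 12472 in GFP and at or below 8709 in all other libraries, while Adam17 is highest in GFP–TTP-AA and, within each condition, in library 3.

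Tnfsf9 encodes 4-1BB ligand, which costimulates T cells through the receptor 4-1BB. Its level was 2258, 2590 and 2644 in GFP, 1975, 2266 and 2314 in GFP–TTP and 1850, 2108 and 2148 in GFP–TTP-AA libraries. GFP–TTP overlapped with both other conditions, and all GFP–TTP-AA libraries were below all GFP libraries. The differences were -0.19 for GFP–TTP minus GFP, -0.29 for GFP–TTP-AA minus GFP and -0.10 for GFP–TTP-AA minus GFP–TTP. None reached 0.5. Tnf was 6.32 times as high as Tnfsf9 per kb of coding sequence in GFP, 5.04 times in GFP–TTP and 4.99 times in GFP–TTP-AA cells.

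Tnfsf14 encodes LIGHT, a ligand of the receptors HVEM and lymphotoxin-β receptor. Its level was 27.5, 25.0 and 26.7 in GFP, 29.8, 27.1 and 28.9 in GFP–TTP and 26.5, 23.9 and 25.5 in GFP–TTP-AA libraries. GFP overlapped with both other conditions. The differences were 0.12, -0.06 and -0.18 in the order GFP–TTP minus GFP, GFP–TTP-AA minus GFP and GFP–TTP-AA minus GFP–TTP, and the counting error alone was 0.20 to 0.22.

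Tnfsf12 encodes TWEAK, and its level was between 4.94 and 6.15 in all libraries. The conditions overlapped, the differences were 0.12, 0.06 and -0.06 in the same order, and the counting error was 0.45 to 0.49. Its gene lies wholly within the readthrough gene Tnfsf12Tnfsf13 (Tnfsfm13 in GENCODE) on the same strand, which had its own row with levels between 7.12 and 10.7, so that the count of Tnfsf12 is uncertain. Ltb encodes lymphotoxin-β, which anchors lymphotoxin-α to the membrane. Its level was between 1.08 and 1.29 in all libraries. The GFP libraries, from 1.21 upwards, did not overlap with the others, of which the highest was at 1.19, and GFP–TTP and GFP–TTP-AA overlapped. The differences were -0.11, -0.16 and -0.05, with a counting error of 1.00 to 1.04. All differences of Tnfsf12 and Ltb were smaller than their counting error.

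Adam17 encodes the protease that sheds TNF and was highest in the line that expressed GFP–TTP-AA. Its level was 965, 1042 and 1347 in the GFP libraries, 1098, 1185 and 1533 in the GFP–TTP libraries and 1440, 1544 and 1992 in the GFP–TTP-AA libraries. All GFP–TTP-AA libraries were above all GFP libraries, and GFP–TTP overlapped with both. GFP–TTP-AA minus GFP was 0.57, a level 1.48 times that of GFP, and GFP–TTP-AA minus GFP–TTP was 0.38. GFP–TTP minus GFP was 0.19. In GFP–TTP-AA minus GFP, 232 of the 10102 genes had a higher difference than Adam17.

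Adam17 also moved most of the members with the replicate number. Library 3 was the highest of each condition, and the range over replicate numbers was 0.48 on the log2 scale, beside a range over conditions of 0.57. For Tnf these ranges were 0.10 and 0.64. The 349 genes of chromosome 12 that passed the filter had a median of 0.11 in GFP–TTP-AA minus GFP, and Adam17 was 0.46 above that median, which is below the size of 0.5. The gene shares 311 bases with Iah1 on the opposite strand. These bases lie at the 3′ end of Adam17, within its 3′UTR of 1767 bases and outside its coding sequence. The differences of Iah1 were -0.33 for GFP–TTP minus GFP, 0.14 for GFP–TTP-AA minus GFP and 0.47 for GFP–TTP-AA minus GFP–TTP, the last of which is larger than that of Adam17, and the part of shared reads in either was not tested.

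Rhbdf2, the gene of iRhom2, differed little. Its level was 468, 452 and 530 in GFP, 500, 483 and 566 in GFP–TTP and 508, 487 and 570 in GFP–TTP-AA libraries, with library 3 highest each time. The conditions overlapped. The differences were 0.10 for GFP–TTP minus GFP, 0.11 for GFP–TTP-AA minus GFP and 0.01 for GFP–TTP-AA minus GFP–TTP.

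In total, 1 of the 5 members that passed the filter was lower by at least 0.5 in GFP–TTP minus GFP, where 2.72% of all genes were, and 0 were higher, where 1.57% were. In GFP–TTP-AA minus GFP, 1 was lower, beside 2.62% of all genes, and 1 was higher, beside 3.42%. In GFP–TTP-AA minus GFP–TTP, 0 were higher or lower, beside 5.93% and 4.82%. The median over all 7 members was 0.10, -0.06 and -0.06 in these comparisons, that over the 5 that passed the filter was 0.10, -0.06 and -0.10, and that of all genes that passed the filter was 0.0011, -0.0041 and -0.0039. The members past 0.5, Tnf and Adam17, differed in opposite directions.

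**Figure D3:**
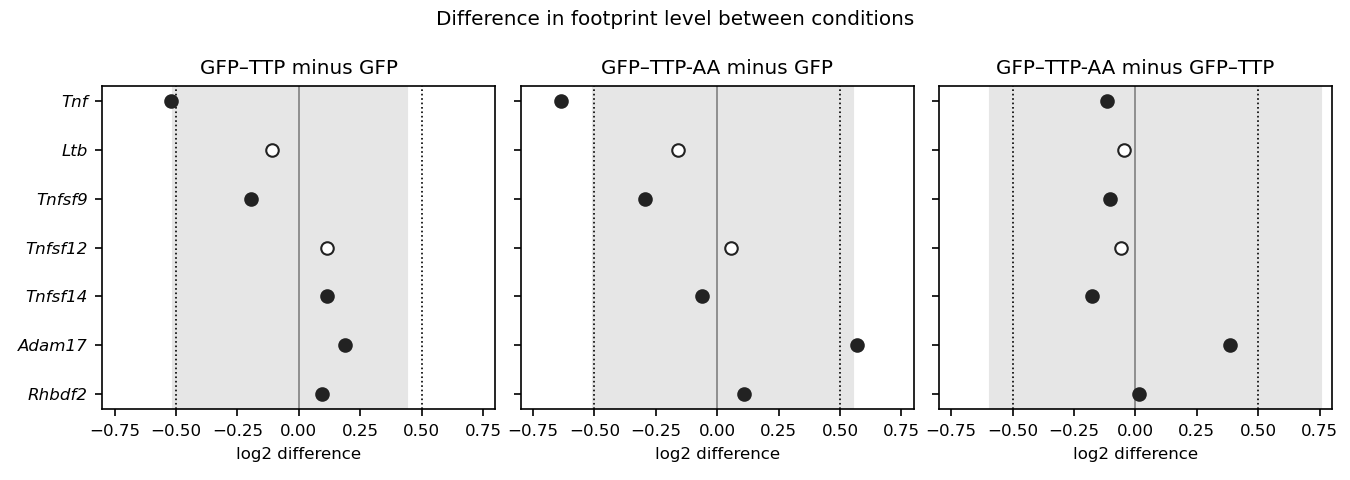
Log2 difference in footprint level of the 7 genes in each comparison (x axis). Filled circles passed the level filter, open circles (Ltb, Tnfsf12) did not, dotted lines mark differences of 0.5, and the grey band holds the middle 95% of the 10102 genes. Tnf lies at -0.52 and -0.64 against GFP, and Adam17 at 0.57 in GFP–TTP-AA minus GFP.

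The ratio of ligand to protease footprints is independent of the size factors, because both are read from the same library. Per kb of coding sequence, Tnf over Adam17 was 44.1, 40.2 and 33.3 in the GFP libraries, 27.0, 24.7 and 20.5 in the GFP–TTP libraries and 19.1, 17.4 and 14.5 in the GFP–TTP-AA libraries. The 3 conditions did not overlap, and the means were 39.0, 23.9 and 16.9. On the log2 scale the difference of the ratio was -0.70 for GFP–TTP minus GFP and -1.21 for GFP–TTP-AA minus GFP. Of the latter, -0.64 was the difference of Tnf and 0.57 that of Adam17. GFP–TTP-AA minus GFP–TTP was -0.50, of which -0.12 was the difference of Tnf and 0.38 that of Adam17. Because Tnf and Adam17 are the members past 0.5 in opposite directions, a larger difference of their ratio follows from their pairing. It is not a further result, and no share over other pairs of genes was computed.

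Tnf over Rhbdf2 had means of 87.4, 57.1 and 52.1 in the GFP, the GFP–TTP and the GFP–TTP-AA line. All GFP libraries were above all others, whereas the lowest GFP–TTP library, at 54.11, was next to the highest GFP–TTP-AA library, at 54.07. Adam17 over Rhbdf2, the protease over its escort, had means of 2.24, 2.39 and 3.09 in the same order.

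**Figure D4:**
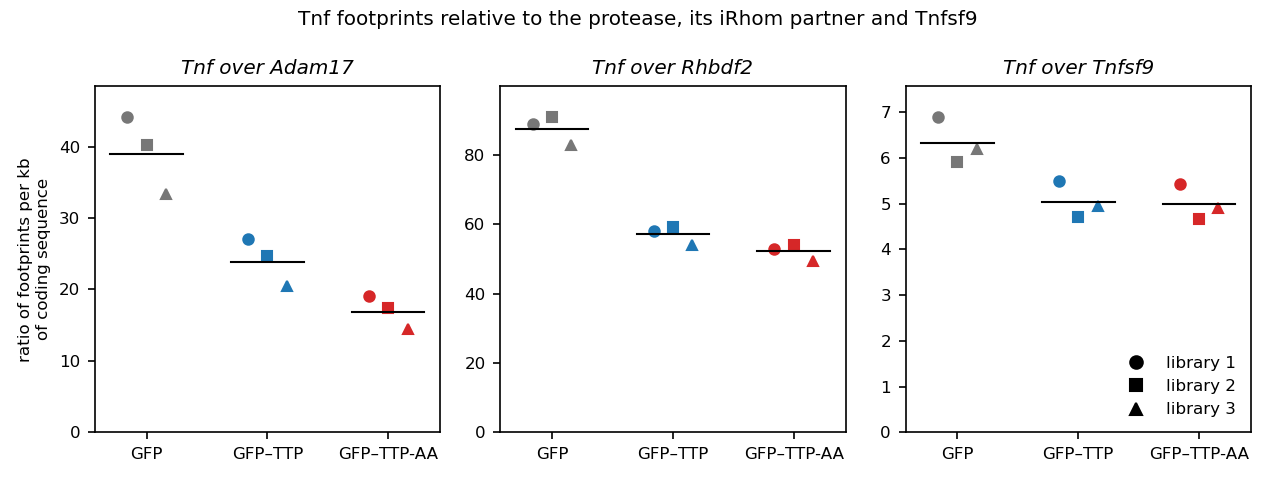
Ratio of Tnf footprints to those of Adam17, Rhbdf2 and Tnfsf9 in each library, per kb of coding sequence (linear axes from 0). Symbols give the replicate number and black lines the geometric mean. Tnf over Adam17 has means of 39.0, 23.9 and 16.9 in GFP, GFP–TTP and GFP–TTP-AA cells, with no overlap between conditions.

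The genes with the pattern most like that of Tnf over the 9 libraries were Tdrkh, C2cd2l and Wbp2. They had the smallest Euclidean distances between centred log2 levels (0.180, 0.183 and 0.235) among 7067 other genes with a mean level of at least 100, for which the median distance was 1.00. In GFP–TTP-AA minus GFP their differences were -0.67, -0.55 and -0.52. Because these genes were picked by the same levels, differences near that of Tnf follow from the choice.

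Around the members, the TNF receptors and the lymphotoxin-β receptor had their highest levels in GFP–TTP-AA cells. Of 6 receptors of the 5 ligands, 4 passed the filter, and 3 of these 4 were higher by at least 0.5 in GFP–TTP-AA minus GFP–TTP, beside 5.93% of all genes. In GFP–TTP minus GFP 0 of the 4 were past 0.5 in either direction, beside 4.30% of all genes. The count was also 0 in GFP–TTP-AA minus GFP, beside 6.04%. Tnfrsf1a and Ltbr both lie on chromosome 6, whose median in GFP–TTP-AA minus GFP–TTP was 0.04. Tnfrsf1a, the TNF receptor with a death domain, had levels of 475, 361 and 649 in the GFP, the GFP–TTP and the GFP–TTP-AA line, and its libraries did not overlap between conditions. Where 3 levels are given below without naming the condition, they follow this order. The difference was 0.85 for GFP–TTP-AA minus GFP–TTP, 0.45 for GFP–TTP-AA minus GFP and -0.39 for GFP–TTP minus GFP. Tnfrsf1b, the other TNF receptor, was at 1125, 1053 and 1550 with a difference of 0.56 for GFP–TTP-AA minus GFP–TTP, and its libraries overlapped. The range of Tnfrsf1b over replicate numbers was 0.77, beside 0.56 over conditions. Its mean level was 0.914 of the authors' mean, outside the range of 0.931 to 1.01, so that its fitted levels follow the counts less closely. Ltbr, the lymphotoxin-β receptor, was at 97.9, 86.8 and 127 with a difference of 0.55. Its GFP–TTP-AA libraries were above all GFP–TTP libraries but overlapped with those of GFP. The range of Ltbr over replicate numbers was 0.54, beside 0.55 over conditions. Tnfrsf12a, the TWEAK receptor, was at 113, 131 and 99.4, with -0.40 in this comparison. The median of the 4 receptors was 0.55 in GFP–TTP-AA minus GFP–TTP, 0.41 in GFP–TTP-AA minus GFP and -0.13 in GFP–TTP minus GFP.

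Of 13 other TNF superfamily ligands, 2 passed the filter. Tnfsf4, which encodes OX40 ligand, was at 34.8, 42.2 and 40.4 in GFP, 23.3, 28.2 and 27.0 in GFP–TTP and 46.8, 56.3 and 53.8 in GFP–TTP-AA libraries. The conditions did not overlap. Its difference was -0.58 for GFP–TTP minus GFP and 0.42 for GFP–TTP-AA minus GFP, whereas Tnf was lower than GFP in both. The counting errors of these Tnfsf4 differences were 0.21 and 0.17, so that -0.58 lies within its counting error of the size of 0.5. In GFP–TTP minus GFP, 2.72% of all genes were lower by at least 0.5. The largest difference of Tnfsf4 was 1.00, for GFP–TTP-AA minus GFP–TTP, with a counting error of 0.19. In that comparison 5.93% of all genes were higher by at least 0.5. Tnfsf13b, which encodes the B cell survival factor BAFF, was at 92.7, 126 and 128, with differences of 0.45 and 0.47 against GFP. Lta, the partner of lymphotoxin-β, had a mean level of 0.704.

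Of 11 other genes of the shedding machinery, 7 passed the filter. Pacs2, a sorting protein that helps ADAM17 return to the surface, was the only one of them past 0.5, with 0.50 in GFP–TTP-AA minus GFP and levels of 36.0, 42.1 and 51.0 in the GFP, the GFP–TTP and the GFP–TTP-AA line. This is beside 3.42% of all genes that were higher. Pacs2 lies on chromosome 12 as Adam17 does and was 0.39 above the median of that chromosome, below the size of 0.5, and its counting error was 0.17. Furin, which removes the propeptide of ADAM17, was at 303, 294 and 410. Frmd8, which stabilizes the complex of iRhom and ADAM17, was at 542, 528 and 546, and Adam10, the nearest relative of Adam17, at 1377, 1372 and 1432. Rhbdf1, the gene of the other iRhom, had a mean level of 0.143, beside 507 for Rhbdf2. Timp3, an inhibitor of ADAM17, had a mean level of 0.249.

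Of 12 other substrates of ADAM17, 6 passed the filter. Hbegf, a growth factor of the EGF family, was at 29.0, 43.0 and 30.5 in GFP, 32.7, 48.5 and 34.4 in GFP–TTP and 13.3, 19.6 and 13.9 in GFP–TTP-AA libraries. All GFP–TTP-AA libraries were below all others, with -1.13 for GFP–TTP-AA minus GFP, -1.30 for GFP–TTP-AA minus GFP–TTP and 0.17 for GFP–TTP minus GFP. The counting error was 0.20 to 0.24. Of all genes, 2.62% were lower by at least 0.5 in GFP–TTP-AA minus GFP and 4.82% in GFP–TTP-AA minus GFP–TTP. As for Zfp36, the mean level of Hbegf, 0.908 of the authors' mean, lay outside the range of 0.931 to 1.01. Its fitted levels thus follow the counts less closely than those of most genes. The other 5 were all within 0.5 of 0 in each comparison. They include Csf1r, the M-CSF receptor, at 6902, 6142 and 7708, and Icam1, an adhesion molecule, at 3257, 3664 and 4081.

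**Figure D5:**
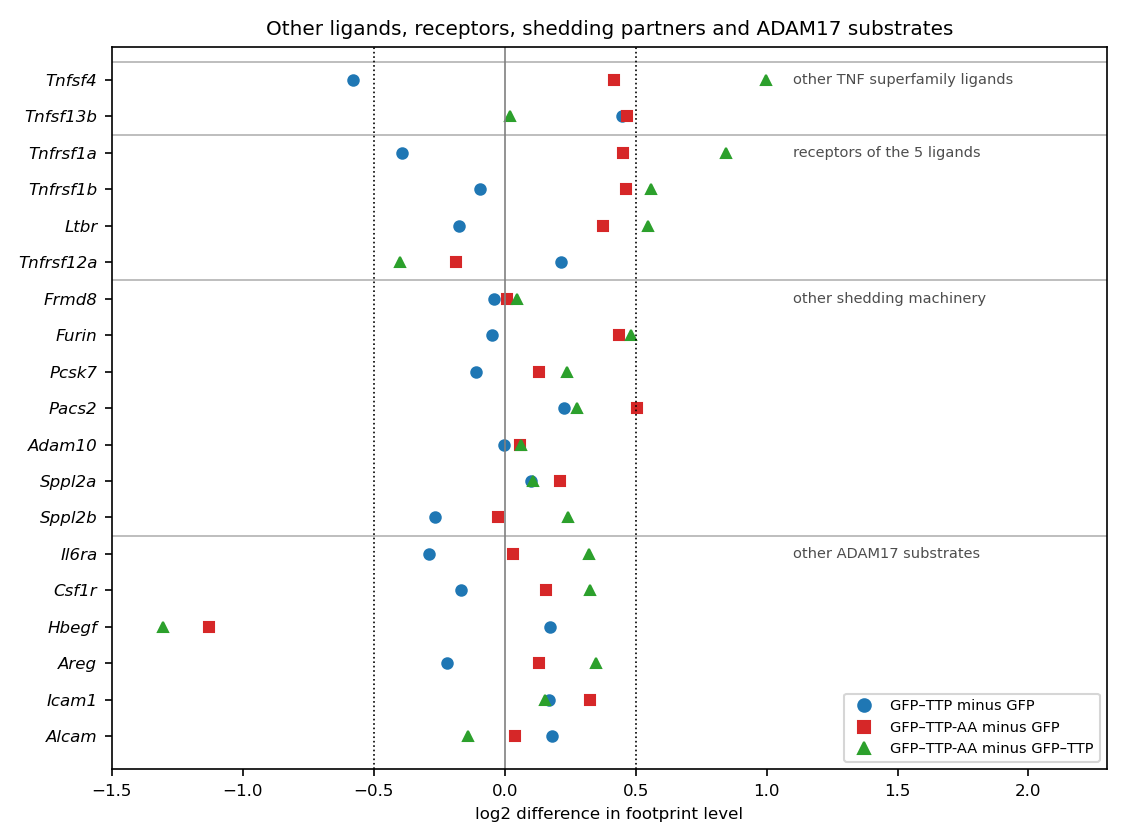
Log2 difference in footprint level (x axis) of the 19 listed genes around the members that passed the level filter, with 1 symbol per comparison and dotted lines at 0.5. Tnfrsf1a, Tnfrsf1b, Ltbr and Tnfsf4 are past 0.5 in GFP–TTP-AA minus GFP–TTP, and Hbegf is at -1.13 and -1.30 in the comparisons with GFP–TTP-AA.

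The macrophage markers moved in part with these comparisons. In GFP–TTP-AA minus GFP–TTP, 3 of the 7 that passed the filter, Adgre1, Fcgr1 and Lyz2, were higher by at least 0.5 and 0 were lower. This is beside 5.93% and 4.82% of all genes, and the median of the 7 was 0.33. Adgre1 and Fcgr1 were lower by at least 0.5 in GFP–TTP minus GFP, beside 2.72% of all genes. Adgre1 was higher by at least 0.5 in GFP–TTP-AA minus GFP, beside 3.42%. The medians of the 7 in these 2 comparisons were -0.17 and 0.15. Adgre1 had levels of 3671, 2295 and 5320. S100a8, the 1 neutrophil marker of 4 that has a row, differed by 1.04 in GFP–TTP-AA minus GFP and by 1.12 in GFP–TTP-AA minus GFP–TTP, with summed levels of 21.3 to 39.5 in GFP, 20.1 to 37.4 in GFP–TTP and 43.5 to 81.6 in GFP–TTP-AA libraries. The part of this in the differences of Tnf, Adam17 and the receptors was not tested.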

How the data were processed

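RiboSeq of 9 mouse macrophage libraries was analysed, grouped by the sample titles. The authors isolated footprints with the ARTseq kit, depleted rRNA and sequenced 50 bp single-end reads. They mapped these to GRCm38 (mm10) with TopHat, allowing each read at most 2 positions, and summed them over genes. Whether reads with 2 positions were counted, so that close paralogs could share footprints, is not known. The submitters' processing notes name Trim Galore, TopHat2 2.0.12, HTSeq and DESeq2 1.6.3. The authors' model had library date and condition terms.

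The deposited table of normalized counts, used here as a signal that the authors fitted with DESeq2, holds 16932 lines for 16921 identifiers. Of the lines 11 are repeats, and 1 has no symbol (9.9e-05% of the values). After gene-wise condition and replicate-number terms and 1 constant per library, the residual SD of the log2 values was 6.00e-14, beside an SD of 4.79, and 0 values were 0. The limma fit that had been planned was therefore not run. A second deposited signal, the authors' mean over libraries, was compared with the mean level over the genes that passed the filter, and their ratio had a median of 1.00 and lay between 0.931 and 1.01 for the middle 95% of genes. The deposited comparison tables also hold the authors' fold changes, standard errors, Wald statistics and p-values, which were not used.

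Size factors (0.414 to 2.14) were the median log2 deviations of 4835 genes with a geometric mean below 1, whose fitted terms are held near 0. Levels were fitted values over size factors, with no pseudocount. The filter was a mean level of 10, and the size 0.5 on the log2 scale. The computation was tested on simulated data. Python 3.11.15, numpy 2.4.6, pandas 2.3.3 and matplotlib 3.10.9 were used. Depth is known only as fitted footprints, and counting errors cover counting alone. Coordinates, lengths and 3′UTRs came from GENCODE vM21, which holds 16835 of the 16920 identifiers with a symbol. Listed genes absent by symbol were looked up by gene identifier, which found 1, Adgre1.

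The members, gene lists and thresholds were chosen with earlier results of these data known. Genes were named if they were members, Zfp36, listed genes that passed the filter and were past 0.5 in any comparison, or the 3 genes nearest to Tnf. The other listed genes and markers were named after their values were seen. Alternatives were other size factors, a pseudocount of 10, subtraction of the median of the own chromosome, other filters and sizes, each replicate number left out, and exon length in place of coding length.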

Additional observations from a re-analysis of the deposited data

How the results depend on the processing

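No paired analysis was possible because the deposited values are fitted and leave no residual within a condition and replicate number. Leaving out a replicate number could not change a difference for the same reason, and moved none by more than 0.0038 through the size factors. Of the 84 member differences under the other alternatives, 81 moved by less than the spread over libraries and kept their side of 0.5. The others were Adam17 in GFP–TTP-AA minus GFP, 0.46 with the median of its own chromosome subtracted, so that 1 member in place of 2 was past 0.5, and Ltb with a pseudocount of 10, -0.012 in GFP–TTP minus GFP and -0.017 in GFP–TTP-AA minus GFP. Subtracting the chromosome median also turned the sign of Tnfsf12 in GFP–TTP-AA minus GFP–TTP, where it did not reach 0.5. With a size of 1, 0 members were past it in GFP–TTP minus GFP and 0 in GFP–TTP-AA minus GFP, beside 0.554% of genes in each, and with a size of 0.3, 1 member (Adam17) was past it in GFP–TTP-AA minus GFP–TTP, beside 30.4% of genes. With a size of 0.3 the shares in the comparisons with GFP were 17.8% for GFP–TTP and 21.6% for GFP–TTP-AA, and with a size of 1 that of GFP–TTP-AA minus GFP–TTP was 1.57%. Without a filter the shares past 0.5 were 2.66%, 3.84% and 6.79%, in place of 4.30%, 6.04% and 10.8%, and a pseudocount of 10 gave 2.81% in GFP–TTP minus GFP. The range over replicate numbers of Ltb was 0.151 with library sums as size factors. The order of the members per kb was the same with exon length. Because the fitted differences are shrunken and carry no replicate error, an absence of a difference cannot be read from a small value, and members with few footprints (Ltb, Tnfsf12, Tnfsf14) are the least informative.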
